A study of Homo sapiens with 16 samples.

Results

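Histone acetylation was described at *MIR17HG* and at 4 genes for cell surface heparan sulfate proteoglycans, the glypicans *GPC5* and *GPC6* and the syndecans *SDC2* and *SDC1*. The 5 members are windows of the human genome (hg19) named for these genes, and they hold 155 of the 179689 peaks listed over 8 ChIP-seq samples. They were selected on the H3K27ac values of A2780 and cPt-resistant A2780cis cells, since *MIR17HG* with *GPC5*, and *SDC2*, lose H3K27ac in the latter, so these values are given here as a description only. The *MIR17HG* window was chr13:91600001-92030000 and includes a large domain upstream of the gene. The *GPC5* window, chr13:92040001-93530000, and the *GPC6* window, chr13:93870001-95070000, follow it on the same chromosome. The *SDC2* window was chr8:97450001-97670000 and the *SDC1* window was chr2:20390001-20430000.

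The study asked how acetylation differs between epithelial ovarian cancer (EOC) lines that are sensitive or resistant to cisplatin (cPt), and how it changes on loss of MBD3, a subunit of the NuRD complex, which holds histone deacetylases. A2780 cells were untreated and cPt-sensitive, and A2780cis cells are their resistant derivative, labelled as treated with cisplatin and kept in medium with cPt. CAOV4 cells were untreated, and CAOV4cis cells were made from them by prolonged exposure to rising cPt and kept in it too. In the A2780 cells labelled shMBD3.26 and shMBD3.232, a doxycycline-induced shRNA was expressed for 1 week and cells with the GFP of the vector were sorted. These cells carry a Tet-on system and an integrated vector that the A2780 cells set beside them here lack, and cells with a control shRNA were not analysed here. All 6 kinds of cells were profiled for H3K27ac, and only the A2780 and A2780cis lines for H3K9ac, each with 1 library. No difference therefore has a replicate check, no test was possible, and values are given with no p-value. The deposited lists state where a peak starts and ends but not how high it is, so the measures are the number of peaks and the covered length, the kb of a window that lie under a listed peak. The reads behind a peak are unknown, and a stretch with no peak can hold signal under the threshold of the peak caller. MBD3 itself cannot be checked in these lists.

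Heparan sulfate proteoglycans are core proteins with long sulfated sugar chains, which bind growth factors, Wnt and Hedgehog ligands and matrix proteins and bring them to their receptors. Syndecans cross the membrane with the core protein, while glypicans are held on its outer face by a lipid anchor. *MIR17HG* is the host transcript of the miR-17-92 cluster, a set of microRNAs induced by MYC and often amplified in cancer. H3K27ac marks active enhancers and promoters, and H3K9ac lies foremost at active promoters.

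The microRNAs of *MIR17HG* are shown because the largest acetylated domain of the 5 windows lies upstream of their host gene. The cluster has 6 hairpins, and 1 mature arm of each is printed with its seed, bases 2 to 8, in capitals.
hsa-miR-17-5p: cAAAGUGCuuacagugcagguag
hsa-miR-20a-5p: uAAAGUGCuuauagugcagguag
hsa-miR-18a-5p: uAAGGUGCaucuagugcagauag
hsa-miR-19a-3p: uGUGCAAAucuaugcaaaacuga
hsa-miR-19b-3p: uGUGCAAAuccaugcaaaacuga
hsa-miR-92a-3p: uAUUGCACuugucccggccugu
These 6 arms carry 4 seeds. The seed of miR-17 and miR-20a is shared by 8 of the 2370 mature names in the RefSeq table (GRCh38.p14), that of miR-92a by 6 and that of miR-18a by 3. The seed of miR-19a and miR-19b is held by these 2 names alone in that table.

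The promoters of the 3 members on chromosome 13 are shown because the domain upstream of *MIR17HG* and the peaks at the 5′ side of *GPC5* and *GPC6* were absent in A2780cis cells. Each is 300 bases around a transcript start, most of them before it, read 5′ to 3′ on the plus strand from RefSeq (GRCh38.p14), with capitals for GC boxes, GGGCGG on either strand. These positions are of another build than the peak lists, so whether a listed peak covers them was not determined.
*MIR17HG*, chr13:91347437-91347736: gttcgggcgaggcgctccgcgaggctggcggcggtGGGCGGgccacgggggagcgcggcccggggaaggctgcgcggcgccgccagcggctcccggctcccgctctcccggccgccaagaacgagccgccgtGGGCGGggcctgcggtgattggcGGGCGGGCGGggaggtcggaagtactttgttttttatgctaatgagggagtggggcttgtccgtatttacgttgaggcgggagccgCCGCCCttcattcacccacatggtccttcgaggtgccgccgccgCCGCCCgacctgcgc
*GPC5*, chr13:91398371-91398670: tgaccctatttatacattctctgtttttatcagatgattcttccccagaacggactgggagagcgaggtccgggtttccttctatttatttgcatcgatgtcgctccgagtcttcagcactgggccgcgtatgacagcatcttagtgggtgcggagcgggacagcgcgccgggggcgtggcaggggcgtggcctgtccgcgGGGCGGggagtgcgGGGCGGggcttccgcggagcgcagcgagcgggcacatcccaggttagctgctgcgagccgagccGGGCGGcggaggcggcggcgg
*GPC6*, chr13:93226557-93226856: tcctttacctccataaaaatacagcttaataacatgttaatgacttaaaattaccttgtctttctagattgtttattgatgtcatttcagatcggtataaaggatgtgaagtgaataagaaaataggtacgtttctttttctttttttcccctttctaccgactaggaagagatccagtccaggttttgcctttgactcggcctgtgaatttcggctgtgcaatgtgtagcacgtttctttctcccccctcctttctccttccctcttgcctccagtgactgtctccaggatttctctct
The *MIR17HG* promoter had 6 GC boxes, of which 2 overlap, 42 CpG and a GC content of 73.0%. The *GPC5* promoter had 3 GC boxes, 33 CpG and 65.0% GC, and the *GPC6* promoter had none, with 6 CpG and 40.0% GC. Both listed starts of *SDC1* had 1 GC box, with 27 and 23 CpG. A GC box stood in 45.0% of all 35116 promoters of the table, which had a median of 14 CpG and 58.7% GC, so that *MIR17HG*, *GPC5* and *SDC1* lie above that median and *GPC6* below it. The sequence of a TATA box, TATAAA on either strand, was matched in the *GPC5* and *GPC6* promoters and in 11.5% of all promoters. Its distance from the transcript start was not considered, so a match need not be a working TATA box.

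The *MIR17HG* window held the most acetylation of the 5 in A2780 cells. H3K27ac covered 204.8 kb there in A2780 cells, with 16 peaks, and 3.2 kb in A2780cis cells, with 1 peak. The cells with shMBD3.26 had 181.8 kb and those with shMBD3.232 had 160.0 kb, with 12 and 10 peaks. CAOV4 and CAOV4cis cells had 3.4 kb each, with 2 peaks and 1 peak. The window was thus broadly covered in all 3 H3K27ac lists of cPt-sensitive A2780 cells and nearly bare in A2780cis cells and in both CAOV4 lines. H3K9ac covered 149.6 kb with 18 peaks in A2780 cells, and in A2780cis cells it was listed at 0.

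Most of this length was 1 domain upstream of the gene, chr13:91727801-91903200, which spans 175.4 kb. Its borders are those of the largest H3K27ac cluster of A2780 cells in the window, stitched as given below. High cover in that list therefore follows from the definition. H3K27ac peaks covered 168.2 kb of the domain in A2780 cells, or 95.9%, with 5 peaks. The widest of these, chr13:91727801-91823000, measured 95.2 kb. When peaks of a list no more than 12.5 kb apart were stitched, as is done for large enhancer clusters, the domain ranked 18 of 14153 clusters by covered length in A2780 cells. It ranked 10 of 14043 with shMBD3.26, where 153.0 kb were covered, and 20 of 11400 with shMBD3.232, where 144.6 kb were covered. The domain was therefore among the longest clusters of each of these lists. H3K9ac peaks covered 133.6 kb of it in A2780 cells, or 76.2%, and the H3K9ac cluster at this place, chr13:91696401-91905600, ranked 9 of 12695. In A2780cis cells neither mark had a peak in the domain. CAOV4 cells had a single H3K27ac peak of 0.4 kb there, and CAOV4cis cells had none.

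**Figure D1:**
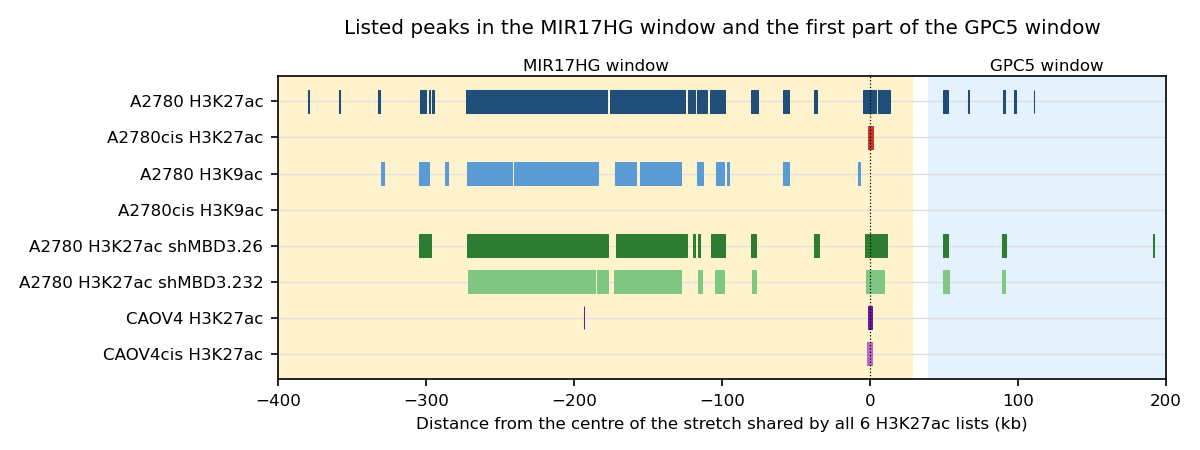
Listed peaks (bars, to scale, with a thin outline that lets narrow peaks show and closes the narrowest gaps) of the 8 samples in the *MIR17HG* window and the first part of the *GPC5* window, against the distance in kb from the centre of the stretch that all 6 H3K27ac lists share. The domain to the left is filled in the 4 lists of cPt-sensitive A2780 cells, and A2780cis, CAOV4 and CAOV4cis cells each have a peak at the shared stretch, which covers 2.8 kb.

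At the downstream end of the window, H3K27ac was present in every line. The stretch chr13:91999601-92002400, of 2.8 kb, lay under a peak in all 6 H3K27ac lists. The peaks around it, within chr13:91996601-92014800, covered 16.8 kb in A2780 cells, 13.8 kb with shMBD3.26 and 12.4 kb with shMBD3.232. They covered 3.2 kb in A2780cis, 3.0 kb in CAOV4 and 3.4 kb in CAOV4cis cells. The peak thus remained in A2780cis cells at about the width it had in both CAOV4 lines, and it was the only H3K27ac peak A2780cis cells had in the window. No H3K9ac peak lay there in A2780 or A2780cis cells.

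The *GPC5* window is the longest of the 5 and was sparsely marked in all lists. H3K27ac covered 8.8 kb in A2780 cells with 7 peaks, 6.0 kb with shMBD3.26 with 4 peaks, and 5.6 kb with shMBD3.232 with 2 peaks. CAOV4 cells had 1 peak of 0.4 kb, and in A2780cis and CAOV4cis cells the window was listed at 0. It held no H3K9ac peak in either A2780 line, so it was the only member with H3K27ac and no listed H3K9ac in A2780 cells. *GPC5* runs on the plus strand, and peaks shared by A2780 cells and both knockdowns lay near its 5′ side, at chr13:92050401-92054200 and chr13:92090401-92092800. The first covered 3.2, 3.0 and 3.8 kb in A2780 cells, with shMBD3.26 and with shMBD3.232. From chr13:92112001 to 93458000, A2780 cells had no H3K27ac peak.

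*GPC6* had a focal peak near its 5′ side and few others. In A2780 cells H3K27ac covered 15.2 kb with 4 peaks, of which 10.8 kb lay in chr13:93876601-93887400. H3K9ac covered 10.2 kb with 7 peaks, of which 5.0 kb lay in the same region. In A2780cis cells both marks were listed at 0. The knockdowns kept the 5′ region at 4.8 kb with shMBD3.26 and 3.8 kb with shMBD3.232, with 7.4 and 3.8 kb in the window in all. CAOV4 cells had 10.6 kb of H3K27ac with 6 peaks, none of which overlapped an H3K27ac peak of A2780 cells and 1 of which overlapped a narrow H3K9ac peak, and CAOV4cis cells had 14.4 kb with 7 peaks, 4.4 kb of them in the 5′ region. Of the 18 regions made by merging the peaks of all lists in this window, 9 had a peak in the CAOV4 pair alone, most of them narrow. *GPC6* was thus marked in both line families, but largely at different places. Different places were common between these lines. Over the whole lists, 32.4% of the A2780 H3K27ac length lay under a CAOV4 peak, and 40.9% of the CAOV4 length under an A2780 peak.

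*SDC2* encodes the syndecan found on many mesenchymal cells, and its window was the second of the 5 by covered length in A2780 cells. H3K27ac covered 33.6 kb with 7 peaks in A2780 cells and 1.8 kb with 1 peak in A2780cis cells. H3K9ac covered 24.0 kb with 8 peaks in A2780 cells and 1.0 kb with 1 peak in A2780cis cells. Both marks were low in A2780cis cells, and the peak left was at the same place, inside chr8:97656001-97660400 near the right border of the window. The next protein-coding gene after *SDC2* in RefSeq (GRCh38.p14) is *CPQ*. Whether this peak lies at *SDC2* or at *CPQ* was not determined. The cells with shMBD3.26 had 22.8 kb with 9 peaks and those with shMBD3.232 had 11.8 kb with 2 peaks. CAOV4 cells had 9.6 kb and CAOV4cis cells had 16.8 kb, with 3 peaks each.

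The peaks of *SDC2* fell into regions with different patterns. The region chr8:97503801-97510000 had a peak in 6 lists, from 1.6 kb for H3K9ac in A2780 cells to 6.2 kb for H3K27ac in the same cells, and had none in either list of A2780cis cells. The widest region, chr8:97521801-97541000, had peaks in the 4 lists of cPt-sensitive A2780 cells and in no other. There H3K27ac covered 16.0 kb in A2780 cells, 9.6 kb with shMBD3.26 and 8.0 kb with shMBD3.232, and H3K9ac covered 14.8 kb. A further region, chr8:97598001-97605000, was widest in CAOV4cis cells at 7.0 kb, against 2.2 kb in CAOV4 and 2.8 kb in A2780 cells. *SDC2* thus had stretches marked in both A2780 and CAOV4 cells beside a wide one listed only in cPt-sensitive A2780 cells and the knockdowns made from them. No sequence of *SDC2* is given here.

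*SDC1*, the syndecan typical of epithelial and plasma cells, was marked in every list, as the *SDC2* window was, but at one and the same region. Its gene runs on the minus strand, and the region chr2:20417201-20426400, at the 5′ side of its window, was the only 1 of 62 merged regions in the 5 windows with a peak in all 8 lists. H3K27ac covered 5.6 kb of it in A2780 and 7.0 kb in A2780cis cells, and H3K9ac covered 7.4 and 5.4 kb. It covered 8.0 kb with shMBD3.26, 9.0 kb with shMBD3.232, 3.4 kb in CAOV4 and 4.4 kb in CAOV4cis cells. Over the whole window H3K27ac covered 9.4 kb in A2780 and 12.8 kb in A2780cis cells. A peak of 1.8 kb, chr2:20407401-20409200, was listed in A2780cis cells alone.

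**Figure D2:**
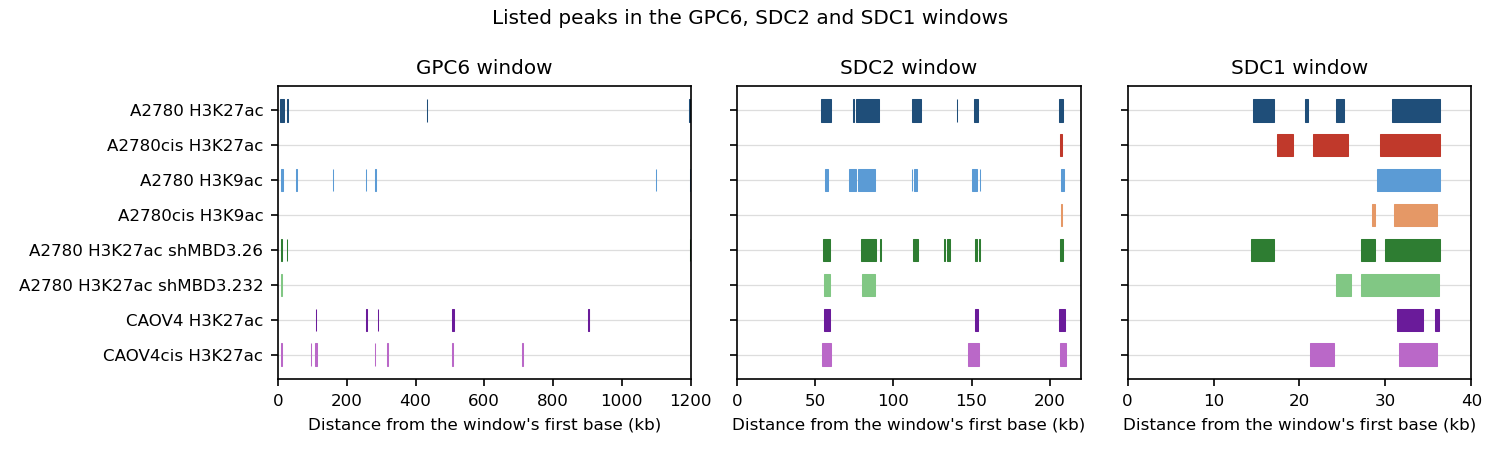
Listed peaks (bars, to scale, with a thin outline that lets narrow peaks show and closes the narrowest gaps) of the 8 samples in the *GPC6*, *SDC2* and *SDC1* windows, against the distance in kb from the first base of each window. A2780cis cells have no peak at *GPC6* and 1 narrow peak per mark at *SDC2*, while all 8 samples have a peak at the right side of *SDC1*.

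Between A2780 and A2780cis cells, the covered length was called lower or higher where it differed at least 2-fold and the larger value was at least 2 kb. For H3K27ac, 4 of the 5 windows were lower in A2780cis cells and *SDC1* was within 2-fold, which is the pattern the windows were picked for. Of tiles of 200 kb over all chromosomes with at least 2 kb in either line, 15.6% were lower and 14.8% were higher. The *MIR17HG* window had 64.0 times and the *SDC2* window 18.7 times the covered length in A2780 cells, and *GPC5* and *GPC6* were listed at 0 in A2780cis cells. Merging the peaks of both lines gave 39 regions in the windows, of which 34 had a peak in A2780 cells only, 4 were common and 1, at *SDC1*, was in A2780cis cells only. Over all merged regions 38.1% had a peak in A2780 cells only and 17.9% in A2780cis cells only.

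H3K9ac, measured in separate libraries of the same lines, gave the same picture for the members it marked. The *MIR17HG*, *GPC6* and *SDC2* windows were lower in A2780cis cells, *SDC1* was within 2-fold, and *GPC5* had no peak. Over all tiles 20.7% were lower and 19.2% were higher. The *SDC2* window had 24.0 times the covered length in A2780 cells. Of 35 merged regions in the windows, 32 had a peak in A2780 cells only, against 46.0% of all merged regions, and 1, at *SDC1*, in A2780cis cells only, against 21.7%. Both marks come from the same cell lines, so the H3K9ac values are not those of independent cells.

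**Figure D3:**
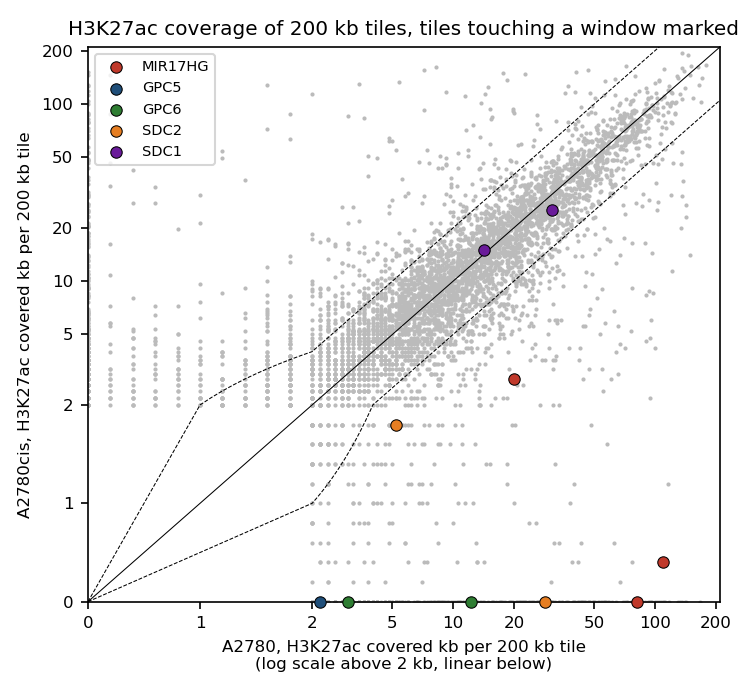
H3K27ac covered length (kb) per 200 kb tile in A2780 cells (x axis) and A2780cis cells (y axis), with log scales above 2 kb and linear ones below. Each gray point is a tile, tiles that touch a window are colored, the solid line marks equal values and dashed lines 2-fold differences. Tiles of *MIR17HG*, *GPC5*, *GPC6* and *SDC2* lie below the lines and the 2 of *SDC1* lie between them. The tile chr13:92000001-92200000 touches both the *MIR17HG* and *GPC5* windows and is colored as *MIR17HG*. *GPC5* is therefore shown only by a tile with 2.2 kb in A2780 cells.

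The 3 windows on chromosome 13 lie on a chromosome that had fewer peaks in A2780cis cells as a whole. It held 657 H3K27ac peaks over 2295.6 kb in A2780 cells and 306 peaks over 1231.8 kb in A2780cis cells. For H3K9ac it held 523 peaks over 1357.0 kb and 102 peaks over 401.8 kb. Of its 200 kb tiles outside the windows, 41.1% were lower in A2780cis cells for H3K27ac and 80.5% for H3K9ac, against 6 of 6 and 5 of 5 tiles that touch the windows. Of all merged regions of the chromosome, 57.9% had a peak in A2780 cells only for H3K27ac and 82.2% for H3K9ac. For H3K9ac, lower tiles were thus common on the whole chromosome. In size, the *MIR17HG* and *GPC6* windows went from 149.6 and 10.2 kb of H3K9ac to 0.0 kb. The chromosome kept 401.8 of 1357.0 kb, but unevenly along its length. In bins of 5 Mb placed by distance from the shared *MIR17HG* stretch, the bin at -15 Mb kept 169.4 of 295.2 kb. The bin at -35 Mb rose from 26.8 to 71.4 kb, and the bin at -60 Mb fell from 157.4 to 7.6 kb. The part of the chromosome's own state, copy number included, in these values was not tested. The *SDC2* window lies on chromosome 8, where H3K27ac covered 3231.8 kb in A2780 and 3211.0 kb in A2780cis cells, and H3K9ac covered 1673.2 and 2186.2 kb.

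**Figure D4:**
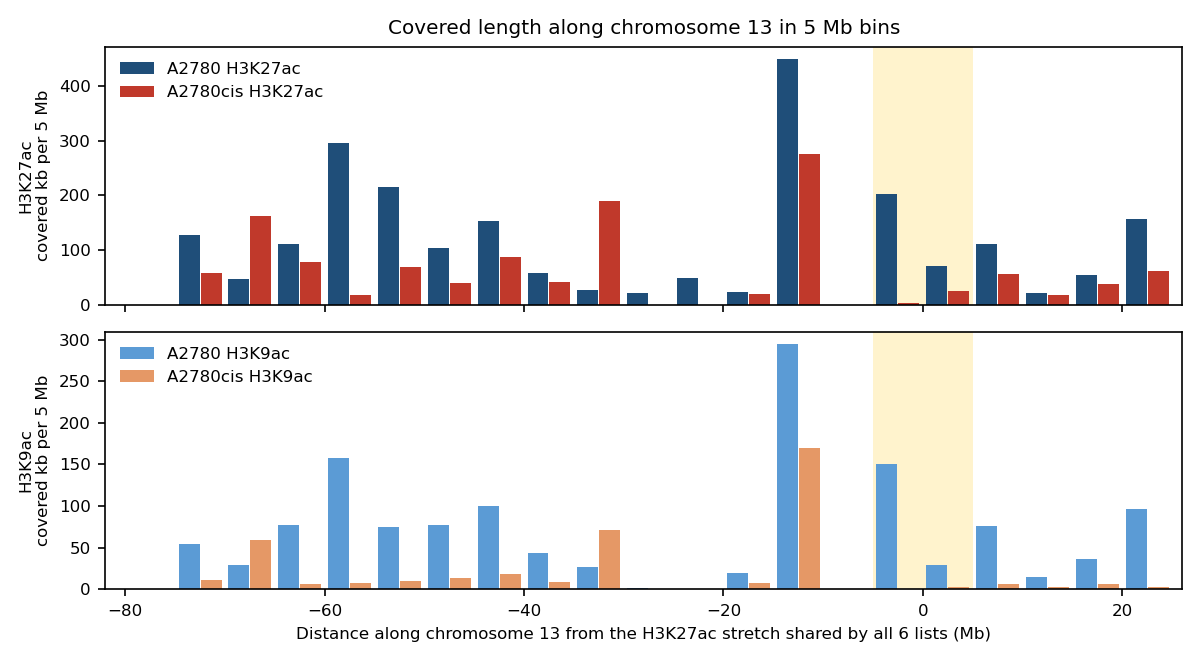
Covered length (kb) per 5 Mb bin along chromosome 13 for H3K27ac (upper panel) and H3K9ac (lower panel) in A2780 and A2780cis cells, against the distance in Mb from the H3K27ac stretch at *MIR17HG* shared by all 6 lists. The shaded bins hold the *MIR17HG*, *GPC5* and *GPC6* windows, and A2780cis cells have lower bars than A2780 cells in most bins of both marks.

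Stretches with no peak around the members were measured in each list, and at the centres of the *MIR17HG* domain and of the *GPC5* and *GPC6* windows those of A2780cis cells were the longest of the 8 lists for both marks. On either side of its remaining *MIR17HG* peak, H3K27ac was not listed from chr13:90585201 to 91999600, or 1.41 Mb, nor from chr13:92002801 to 95200600, or 3.2 Mb, which takes in the *GPC5* and *GPC6* windows. By length they ranked 298 and 73 of 20878 such stretches. The windows were picked for lower H3K27ac in A2780cis cells at *MIR17HG* with *GPC5*, so long H3K27ac stretches there follow in part from that choice. For H3K9ac a single stretch without a peak, chr13:81592601-96328000, spanned 14.7 Mb, held all 3 windows and ranked 3 of 15344. Around the centre of the *SDC2* window, both marks were absent over 0.361 Mb in A2780cis cells, which ranked 1280 of 20878 for H3K27ac, and the H3K27ac list of shMBD3.232 had a longer one of 1.12 Mb, chr8:97538001-98655600. In the 1 Mb after the *GPC6* window, H3K27ac covered 21.0 kb in A2780 and 11.8 kb in A2780cis cells, so that H3K27ac resumed there in the resistant line, whereas H3K9ac covered 10.8 kb and then 0 kb. Between the *GPC5* and *GPC6* windows no list had a peak.

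In the CAOV4 pair, the resistant line had about as much or more covered length at 4 of the 5 members. None of the 5 windows was at least 2-fold lower in CAOV4cis cells and 1 was higher, against 14.9% and 17.7% of all tiles. *SDC1* went from 3.4 to 7.2 kb, which is 2.12-fold. The *SDC2* window, at 9.6 and 16.8 kb, the *GPC6* window, at 10.6 and 14.4 kb, and the *MIR17HG* window were within 2-fold, and *GPC5* was under 2 kb in both. Of 19 merged regions 7 were common, 6 were in CAOV4 cells only and 6 in CAOV4cis cells only, and the share in CAOV4 cells only over all merged regions was 29.1% and that in CAOV4cis cells only was 33.8%. The wide acetylated domain upstream of *MIR17HG* was not listed in either CAOV4 line, apart from the 0.4 kb peak of CAOV4 cells, so this pair had no such domain to lose.

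Knockdown of MBD3 left the large domain in place and coincided with less covered length at all members but *SDC1*, a difference of at least 2-fold at *GPC6* with both shRNAs and at *SDC2* with 1 of them. With shMBD3.26, 1 of 5 windows was at least 2-fold lower, *GPC6* at 2.05-fold, and none was higher, while over all tiles 11.0% were lower and 4.16% higher. With shMBD3.232, *GPC6* was 4.0-fold and *SDC2* 2.85-fold lower and none was higher, while over all tiles 16.5% were lower and 1.97% higher. The *MIR17HG* window kept 181.8 and 160.0 kb of 204.8 kb, and *SDC1* had 10.6 and 10.8 kb against 9.4 kb. Of 44 merged regions with shMBD3.26, 14 had a peak in A2780 cells only, against 34.0% of all merged regions, and 8 in the knockdown only, against 18.0%. Of 37 with shMBD3.232, 24 were in A2780 cells only, against 40.1%, and none in the knockdown only, against 10.9%. The lists of the knockdowns were shorter as a whole, at 78.6 Mb for shMBD3.26 and 80.8 Mb for shMBD3.232 against 98.9 Mb in A2780 cells, and the part of this in the window values was not tested. Over the 5 windows together H3K27ac covered 271.8 kb in A2780 cells, 228.6 kb with shMBD3.26 and 192.0 kb with shMBD3.232. Both knockdowns and A2780cis cells are set beside the same A2780 list, so their differences share its error. That list also served to pick *MIR17HG* with *GPC5*, and *SDC2*, so lower knockdown values at these members can follow in part from that choice.

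**Figure D5:**
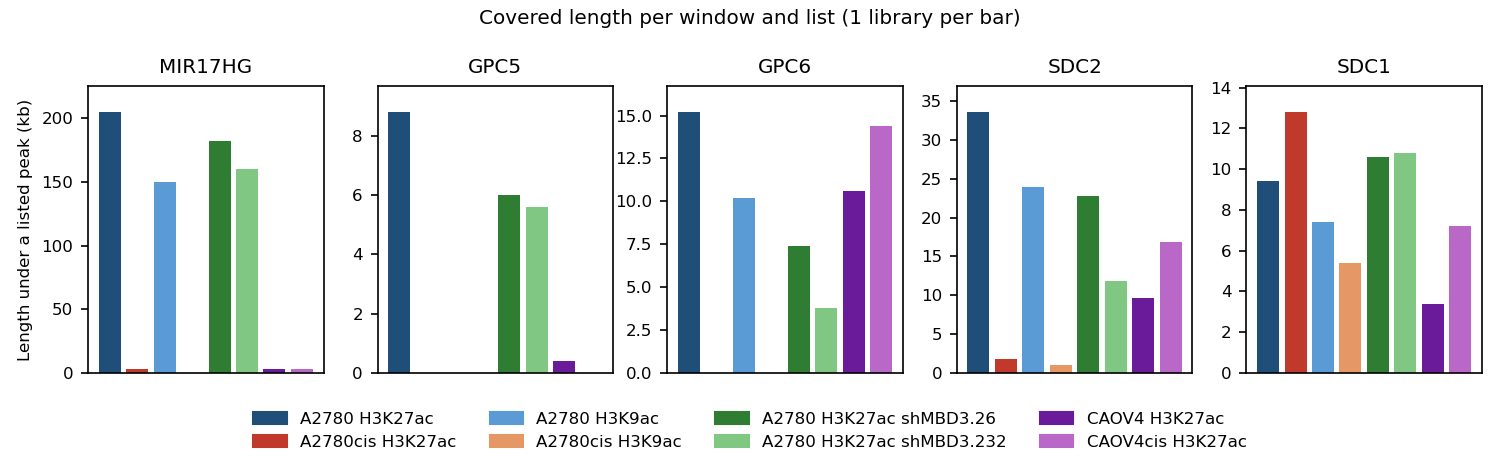
Covered length (kb) of each window in each of the 8 samples, 1 library per bar, with a separate y axis from 0 for each member. *MIR17HG* has its 4 high bars in the lists of cPt-sensitive A2780 cells, *GPC6* and *SDC2* are also marked in the CAOV4 pair, and *SDC1* is marked in all samples.

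The 2 marks overlapped to different degrees among the members in A2780 cells. Of the H3K27ac covered length, 69.0% also lay under an H3K9ac peak at *MIR17HG*, 59.6% at *SDC1*, 56.0% at *SDC2*, 40.8% at *GPC6* and none at *GPC5*, beside 44.0% over the whole lists. Of the H3K9ac length at *MIR17HG*, 94.5% lay under H3K27ac, beside 78.7% over the whole lists. At *MIR17HG*, 96.3% of the H3K27ac length with shMBD3.26 and 98.5% of that with shMBD3.232 lay under an A2780 peak. Over the whole lists these shares were 81.2% and 80.7%. They were also above the whole-list shares at *GPC6* and *SDC2*, with 97.3% and 88.6% for shMBD3.26 and the full length for shMBD3.232. At *GPC5* and *SDC1* they were below the whole-list shares. The A2780 H3K27ac list served to pick *MIR17HG* with *GPC5*, and *SDC2*. High shares under its peaks at *MIR17HG* and *SDC2* can therefore follow in part from that choice. At *GPC6* the share with shMBD3.232 is that of 1 peak of 3.8 kb. Of the A2780 length at *MIR17HG*, 85.4% lay under a peak with shMBD3.26 and 77.0% with shMBD3.232, beside 64.6% and 66.0% over the whole lists. Among the 62 merged regions of all lists, 35 had a peak in 1 list only, 8 had one in all 4 lists of cPt-sensitive A2780 cells and 5 had one in an A2780cis list. Of these 5, 3 were at *SDC1*, 1 at *SDC2* and 1 at *MIR17HG*. These counts are a description only, since regions of all lists were not counted outside the windows. The windows were also picked for lower H3K27ac in A2780cis cells, which have fewer lists than cPt-sensitive A2780 cells.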

How the data were processed

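Per the study's methods and the submitters' processing notes, the authors aligned reads with Bowtie2 on hg19, applied quantile normalization and ran MACS2 on each sample, with versions not given in the sources used here. They deposited 8 peak lists that give each peak's start, its end and a score of 0 in every row, which was not used. On the standard chromosomes boundaries lie on a grid of 200 bp with gaps of at least 1000 bp, and no step that gives this layout is named in the sources used here. The 8 input libraries were not analysed here, and 6 peaks off the standard chromosomes were left out.

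Windows were fixed by coordinates, and the members, lists and alternatives were chosen with earlier results of these data known. All 5 genes are named, with the widest peak and longest gap per window. Peaks were clipped to the windows and summed as covered length. Peaks of both lists sharing at least 1 bp were merged into regions. Tiles of 200 kb with at least 2 kb in either list and merged regions over all chromosomes gave the background, which the windows, 40.0 to 1490.0 kb long, match in size only roughly. Neither p-values nor error bars were computed for the comparisons, since each condition had 1 library, and the depth of each library is unknown from the lists. A binomial (Wilson) interval on steps of 200 bp served only to label the covered lengths under the alternatives. Merging and calling were tested on simulated losses, made by taking whole peaks or tiles out of the A2780 H3K27ac list. Shifted borders and gains were not simulated. Calculations used Python 3.11.15 and matplotlib 3.10.9. Promoters and microRNAs came from RefSeq tables (GRCh38.p14), matched by symbol for *MIR17HG*, *GPC5*, *GPC6* and *SDC1*, and for the microRNAs by name. Other genes of heparan sulfate synthesis need an annotation of hg19 and were not analysed here. The alternatives were the wider 50% of each list, peaks over 2 kb, equal numbers of widest peaks, borders moved by 10 kb, whole peaks by midpoint, an overlap of 50%, a partner within 5 kb, and tiles of 100 and 500 kb.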

Additional observations from a re-analysis of the deposited data

Results flagged for a closer look

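For *GPC6* and *SDC2*, the H3K27ac covered length moved in opposite directions in the 2 cell line pairs. The *GPC6* window fell by 15.2 kb from A2780 to A2780cis cells and was 3.8 kb longer in CAOV4cis than in CAOV4 cells. The *SDC2* window fell by 31.8 kb in the first pair and was 7.2 kb longer in the second. With 1 library per line the difference between the pairs was not tested, the windows were picked for the first change at *SDC2*, and the gain at *GPC6* and *SDC2* in the CAOV4 pair was under 2-fold.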

How the results depend on the processing

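No paired analysis was possible because each condition had 1 library, and for the same reason no library could be left out. The number of windows at least 2-fold lower was the same under all 30 alternatives run. The number at least 2-fold higher changed in 1 of 30: with the wider 50% of each list, 3 windows were higher in CAOV4cis cells instead of 1, *GPC6* and *SDC2* beside *SDC1*. Counts of merged regions with a peak in the reference list only were the least stable, since many such regions are narrow. With only peaks over 2 kb they were 18 instead of 34 (H3K27ac, A2780cis), 18 instead of 32 (H3K9ac, A2780cis), 0 instead of 6 (CAOV4cis), 6 instead of 14 (shMBD3.26) and 8 instead of 24 (shMBD3.232). With any peak within 5 kb taken as a partner the count with shMBD3.26 was 9, and with equal numbers of widest peaks the count with shMBD3.232 was 15. No called window changed direction, but 29 values of the differences in covered length under these alternatives moved and 121 did not. A value moved where the covered share of either list left a binomial (Wilson) interval around its main value. This interval takes steps of 200 bp as independent, which steps under 1 peak are not. The label thus need not follow the size of a change. With only peaks over 2 kb, *SDC2* in A2780cis cells (H3K27ac) moved from -31.8 to -32.4 kb. *MIR17HG* with shMBD3.232, at -44.8 and -38.4 kb, did not. With only peaks over 2 kb, or the wider 50% of each list, the H3K27ac loss at *GPC5* in A2780cis cells was -3.2 instead of -8.8 kb, and the *GPC5* differences with shMBD3.26 and shMBD3.232, -2.8 and -3.2 kb, became 2.2 and 0.6 kb, in favor of the knockdown. With windows narrowed by 10 kb at each end, the *GPC6* difference in A2780cis cells was -9.4 instead of -15.2 kb for H3K27ac and -6.6 instead of -10.2 kb for H3K9ac, and with shMBD3.232 it was -7.4 instead of -11.4 kb. The *SDC1* differences shrank there too, to -0.6 kb for H3K9ac in A2780cis cells and to 0.4 and 0.8 kb with shMBD3.26 and shMBD3.232. The *GPC6* gain of 3.8 kb in CAOV4cis cells was 7.4 kb with the wider 50% of each list and 2.0 kb with narrowed windows. With tiles of 500 kb, the background of lower tiles with shMBD3.26 was 6.51% instead of 11.0%. The lists hold neither heights nor reads, so a narrow or absent peak cannot be told apart from weak signal or low depth.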
